A study of Homo sapiens with 105 samples.

Results

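The comparison set Caco-2 cells given outer membrane vesicles (OMVs) of the bacterium Proteus mirabilis for 10 h against Caco-2 cells given free lipopolysaccharide (LPS) of P. mirabilis for 10 h. Caco-2 is a line from a human colon adenocarcinoma. The OMV group received 6e+09 vesicles of P. mirabilis DSM 4479. The LPS group received LPS in the medium without vesicles, at 0.2 ng per µl by the labels. Cells given PBS for 10 h were the untreated control of both. The paper gives the same LPS dose per ml and not per µl. The study also measured LPS in its vesicle preparations, and the concentration it gives for them, per ml, is about that of the free LPS. Neither concentration can be checked from the counts analysed here. The labels put 8 libraries in the OMV and LPS groups at 10 h, 4 in each, of a series with 66 libraries on the lanes used here and 39 on lanes left aside. Of these, 5 were compared, OMV replicates 2, 3 and 4 and LPS replicates 2 and 3, beside PBS replicates 2 and 3, and a library is called below by its group and replicate number (OMV 2, LPS 3). All groups are of 1 cell line, and the labels do not say whether replicates came from separate cultures. P-values therefore measure only the spread between libraries. That spread was estimated over all 66 libraries on the lanes used, of all groups, and not over the compared ones alone. The comparison asks what the cells did in the presence of whole vesicles that they did not do in the presence of free LPS.

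LPS is the major lipid of the outer leaflet of the Gram-negative outer membrane, and OMVs bud from that membrane with LPS, proteins and nucleic acids on board. Free LPS is sensed at the cell surface by TLR4 with its partner MD-2 (the product of LY96) and CD14. Receptors of this kind lead to the NF-κB pathway, which switches on chemokines, cytokines and its own inhibitors. Caco-2 cells differentiate towards absorptive enterocytes, with a brush border of digestive enzymes, lipoprotein assembly and fatty acid oxidation. They are known for a weak response to LPS.

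The other 3 libraries of the OMV and LPS groups, and PBS replicates 4 and 5, were sequenced on lanes 2 to 4 of 1 flow cell. In many libraries of those lanes expression did not match the labelled time, and all libraries of the lanes were left aside. The library labelled OMV replicate 5 stood nearest to cells at 24 h by its expression, as did PBS 4 and 5, while LPS 4 and 5 stood nearest to cells at 10 h. Of the 15 most raised genes, 0 were above all 8 LPS and PBS libraries at 10 h in it, with 13.0 CPM of PI3, 47.8 CPM of C3 and 0 CPM of CXCL5. The 5 libraries compared held 5594770 to 8387329 counts, and the series ran from 632659 to 8558755 counts with a median of 4982349. PBS replicate 2 was shallower, at 2476570 counts. Levels are given as CPM, counts per 1e6 of scaled library size, for single libraries in the order of their replicate numbers. The summed level of 10 epithelial markers was 8581 to 9495 CPM with OMVs, 8194 to 8857 CPM with free LPS and 8116 to 8728 CPM with PBS. The summed level of 12 leukocyte markers was 11.1 to 12.9 CPM with OMVs, 14.5 to 15.9 CPM with free LPS and 12.7 to 15.4 CPM with PBS. Of these leukocyte markers, PTPRC and MS4A1 were at 0 in all 7 libraries, while others were detected. CSF1R had means of 7.03 CPM with OMVs, 8.99 CPM with free LPS and 7.85 CPM with PBS. CD8A had 14, 11 and 3 counts and CD3D had 5, 9 and 3 counts over the 3 groups in that order. The 9 fibroblast markers summed to 53.0 to 70.3 CPM with OMVs, 66.02 to 82.3 CPM with free LPS and 69.6 to 75.1 CPM with PBS, with COL1A2 and FAP at 0 in all 7. Single markers of these lists passed the test described next and were lower with OMVs, namely COL1A1 (log2 fold change -0.67 ± 0.13), PDGFRB (-1.02 ± 0.24) and the enteroendocrine TAC3 (-1.68 ± 0.48). These calls were lost for COL1A1 (without LPS 2, adjusted p 0.0604), PDGFRB (without OMV 2, OMV 3 or LPS 2, adjusted p up to 0.476) and TAC3 (without OMV 2, OMV 3, LPS 2 or LPS 3, adjusted p up to 0.192), and their part in the results was not tested. Mitochondrially encoded genes took 9.44 to 10.2% of counts with OMVs, 10.6 to 11.0% with free LPS and 10.3 to 13.2% with PBS. In bulk RNA, fewer cells of a type and less RNA per cell cannot be told apart.

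Higher with OMVs than with free LPS were the neutrophil chemokine CXCL5, the antiprotease PI3 (elafin), complement C3 and the NF-κB inhibitor TNFAIP3. Lower were the brush border peptidase DPP4 and the gap junction gene GJB1. By list, 6 of 19 genes of epithelial defence and 5 of 21 genes of the matrix were higher and 0 lower, while 7 of 24 brush border genes, 6 of 20 genes of fatty acid oxidation and 4 of 16 genes of apolipoproteins and lipid handling were lower and 0 higher. Of 18775 genes tested, 597 (3.18%) passed an adjusted p of 0.05 in the quasi-likelihood test of edgeR with Benjamini-Hochberg adjustment, 244 higher (1.3%) and 353 lower (1.88%) with OMVs. Fold changes are OMVs over free LPS on the log2 scale, with their standard error after ±. Their median over all genes was 0.0042. Most changes were small. The log2 fold change was over 1 for 27 of the higher genes and below -1 for 48 of the lower ones, and it stayed within 0.5 for 171 and 164 of them. The libraries of the groups did not overlap for 193 of the 244 higher and 267 of the 353 lower genes, while over all genes tested they lay apart with OMVs above for 2207 (11.8%) and with OMVs below for 2207 (11.8%). Protein-coding genes made up 226 of the higher and 328 of the lower genes. Free LPS set against PBS gave 0 genes in the same edgeR test, with 724 at an unadjusted p under 0.05, and 0 genes in DESeq2 (579 unadjusted) and in limma-voom (749 unadjusted). The number of genes past the test moved with the libraries used, and below, each call lost when 1 library was left out is given with that library and the highest adjusted p of such fits. It was 226 without OMV 2, 379 without OMV 3, 194 without LPS 2, 193 without LPS 3 and 37 without the replicate number as a block. With the libraries of the lanes put back it was 6, all higher with OMVs, and 5 of the genes named here, CXCL5, PI3, ABAT, SOD2 and PERP, passed there. Of 41 higher and 60 lower genes examined one by one, 17 and 17 stayed past the test whichever of the 5 libraries was left out. These 17 higher genes include CXCL5, PI3, OLR1, C3, MMP1, SAT1, ABAT, SOD2, IL32, PERP, TNFAIP3 and TNFRSF9, and the 17 lower ones include NYNRIN, CAPN5, HPN, GJB1, KLC4, CDK18, HAVCR1, ALDH6A1, TJP3, DPP4, MYO1A and ESPN. Without the replicate block, 11 of the 41 and 9 of the 60 passed. Of the genes just listed, MMP1, TNFRSF9, GJB1, KLC4, CDK18, ALDH6A1, TJP3, DPP4, MYO1A and ESPN did not pass there (adjusted p 0.113 to 0.823).

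Among chemokines, the largest difference was in CXCL5, which attracts neutrophils through the receptor CXCR2. CXCL5 (ENSG00000163735.7, chr4:73995642-73998677, GRCh38, minus strand) had 6.604, 8.07 and 4.51 CPM with OMVs, against 0 and 0 CPM with free LPS and 0 and 0 CPM with PBS. All 134 counts in these 7 libraries were in the OMV group, at least 27.9-fold higher than with free LPS and at least 21.1-fold higher than with PBS, with a floor of 3 counts over the LPS or PBS group. The adjusted p against LPS was 1.97e-09 in edgeR. Over the whole series 22 libraries had a CXCL5 count, 83 had 0, and 6 had more than 2, namely the 3 OMV libraries, 2 libraries of Lacticaseibacillus casei vesicles at 10 h with 13 and 4 counts, and 1 library of the lanes left aside. CXCL10, which attracts activated T cells, had 2.52, 4.09 and 3.79 CPM with OMVs, against 1.04 and 0 CPM with free LPS and 0.424 and 0.139 CPM with PBS. All 3 OMV libraries were above both LPS libraries (log2 fold change 2.49 ± 0.55, adjusted p = 0.00298), on 71 counts with OMVs, 7 with free LPS and 2 with PBS. The size of this fold rests on single libraries, at 1.71 on the log2 scale without LPS 3, 1.90 without OMV 3 and 6.96 without LPS 2, which leaves the LPS group at 0 and is no bound. CCL28, a mucosal chemokine of colon epithelium, had 5.82, 7.59 and 8.65 CPM with OMVs, against 11.7 and 10.4 CPM with free LPS, with all OMV libraries below both LPS libraries. CCL28 differed by -0.64 ± 0.20 on the log2 scale (adjusted p = 0.0491). Of 8 chemokines tested, 2 were higher and 1 was lower, and the other 5, among them CXCL1 (log2 fold change 0.82 ± 0.52, adjusted p = 0.482), CCL20 (1.31 ± 0.64, adjusted p = 0.308) and CXCL2 (-0.066 ± 0.32, adjusted p = 0.958), did not pass. CXCL6, the nearest relative of CXCL5, was too low to test, with 3, 10 and 5 counts with OMVs and 0 in every LPS and PBS library, at least 3.74-fold higher than with free LPS. CXCL8, the main neutrophil chemokine, was also too low to test, with 2, 15 and 8 counts with OMVs, 2 and 1 with free LPS and 1 and 3 with PBS, and its depth-scaled ratio over LPS was 5.20. The 95% interval of 1.59 to 26.9 covers counting error only. CXCL6 and CXCL8 were chosen after their counts were seen. Among others too low to test, CXCL9 had 6 counts with OMVs and 9 with free LPS, and CCL25 had 3 and 4. CXCL11 had 7 and 2, and CX3CL1 had 7 and 1. The calls of CXCL10 (without OMV 3 or LPS 3, adjusted p up to 0.187) and of CCL28 (without OMV 2, OMV 3 or LPS 2, adjusted p up to 0.6) were lost.

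Of 14 cytokines and members of the TNF family tested, 3 were higher and 0 were lower with OMVs. The TNF gene itself had 0 counts in all 7 libraries. IL32, a cytokine of epithelial and immune cells, had 120.1, 124 and 118 CPM with OMVs, against 67.2 and 75.2 CPM with free LPS and 64.5 and 67.9 CPM with PBS. The OMV libraries were close together and well above all others (log2 fold change 0.75 ± 0.09, adjusted p = 3.30e-09). TNFRSF9, the receptor 4-1BB of the TNF receptor family, had 12.4, 5.30 and 4.33 CPM with OMVs, against 2.97 and 1.19 CPM with free LPS, apart between the groups (log2 fold change 2.00 ± 0.34, adjusted p = 4.70e-05). LTB, lymphotoxin beta, had 2.99, 1.81 and 3.06 CPM with OMVs, against 0.445 and 0.341 CPM with free LPS, again without overlap. LTB differed by 2.54 ± 0.58 on the log2 scale (adjusted p = 0.00441). The call of LTB (without LPS 2 or LPS 3, adjusted p up to 0.127) was lost.

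The promoters of 4 of these raised signalling genes are shown because NF-κB response genes stand among them. They were chosen after values and sequences were seen, and LTB has 2 windows in the table, of which the one with a match is shown. Each line gives the 250 bases before the gene start from RefSeq on GRCh38.p14, on the minus strand for all 4, and capitals mark matches to a form of the NF-κB motif that was chosen after the values were known. It reads GGG, any 3 bases, then TTCC, and was searched on both strands. The windows are chr4:73998678-73998927 for CXCL5, chr4:76023498-76023747 for CXCL10, chr6:31582425-31582674 for LTB and chr1:7940840-7941089 for TNFRSF9.
CXCL5: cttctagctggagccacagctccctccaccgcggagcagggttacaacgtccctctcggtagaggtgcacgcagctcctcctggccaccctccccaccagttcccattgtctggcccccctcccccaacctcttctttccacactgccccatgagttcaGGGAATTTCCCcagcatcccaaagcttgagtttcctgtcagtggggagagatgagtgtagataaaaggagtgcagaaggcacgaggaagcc
CXCL10: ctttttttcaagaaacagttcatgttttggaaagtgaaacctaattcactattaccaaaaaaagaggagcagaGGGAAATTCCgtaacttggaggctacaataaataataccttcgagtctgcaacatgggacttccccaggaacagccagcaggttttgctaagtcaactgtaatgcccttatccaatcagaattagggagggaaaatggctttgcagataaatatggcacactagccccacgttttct
LTB: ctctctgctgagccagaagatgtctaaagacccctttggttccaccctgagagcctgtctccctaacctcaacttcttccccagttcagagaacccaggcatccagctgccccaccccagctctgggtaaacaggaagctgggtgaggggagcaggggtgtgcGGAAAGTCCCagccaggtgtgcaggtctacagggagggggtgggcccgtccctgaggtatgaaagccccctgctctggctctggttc
TNFRSF9: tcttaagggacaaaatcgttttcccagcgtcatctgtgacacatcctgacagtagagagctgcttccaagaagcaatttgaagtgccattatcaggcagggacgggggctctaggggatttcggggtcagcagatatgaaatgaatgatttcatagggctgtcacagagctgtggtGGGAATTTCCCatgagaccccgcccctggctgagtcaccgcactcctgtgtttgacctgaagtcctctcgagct
In CXCL5 and TNFRSF9 a match on each strand overlapped the other, starting at -91 and -90 and at -74 and -73 from the gene start. The motif was in the windows of 18 of 186 higher genes with an entry (9.68%), 20 of 246 lower genes (8.13%), 1004 of 11883 tested genes (8.45%) and 1875 of 27305 genes in the table (6.87%). Of the 9 genes with an entry that were higher at both 10 and 24 h, 4 held it (44.4%). A stricter form, GGGAA followed directly by TTTCC, was in 3 of the 186 higher genes (1.61%), 0 of the 246 lower genes and 28 of the 11883 tested genes (0.236%), and in 0 of those 9. These shares were not tested. CXCL5 and TNFRSF9, chosen for display after values and sequences were seen, are among the 3 higher genes with the stricter form. A match describes the letters and not a bound site.

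Inhibitors of NF-κB signalling were among the raised genes, and its subunits did not pass the test. TNFAIP3, the deubiquitinase A20 that shuts the pathway down, had 72.5, 72.4 and 80.2 CPM with OMVs, against 49.7 and 41.6 CPM with free LPS and 42.02 and 39.5 CPM with PBS. Every OMV library was above every other (log2 fold change 0.70 ± 0.10, adjusted p = 4.37e-07). IKBKE, a kinase of the innate response, had 26.1, 36.6 and 29.4 CPM with OMVs, against 21.7 and 18.1 CPM with free LPS, apart by a small gap. IKBKE differed by 0.65 ± 0.14 on the log2 scale (adjusted p = 0.00256). NFKBIB, which holds NF-κB in the cytosol, had 63.4, 59.1 and 68.1 CPM with OMVs, against 48.8 and 48.1 CPM with free LPS. NFKBIB differed by 0.38 ± 0.10 on the log2 scale (adjusted p = 0.0165). In all, 3 of 21 subunits and feedback genes were higher and 0 were lower, with a median log2 fold change of 0.11. The values of NFKB1 (-0.09 ± 0.084), RELA (0.079 ± 0.084), NFKBIA (-0.059 ± 0.13) and BIRC3 (0.54 ± 0.23, adjusted p = 0.194), chosen after they were seen, did not pass. The subunit RELB narrowly missed the threshold (log2 fold change 0.57 ± 0.18, adjusted p = 0.0607). The calls of IKBKE (without OMV 3 or LPS 3, adjusted p up to 0.143) and of NFKBIB (without OMV 2, OMV 4, LPS 2 or LPS 3, adjusted p up to 0.25) were lost.

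None of the 15 tested genes in the list of LPS and pattern receptors passed the test in either direction. The list also holds adaptors and kinases of their signalling, such as MYD88, TIRAP, IRAK1 and RIPK2. Among the receptors, TLR1, TLR3, TLR6, TLR9, NOD2 and NLRP1 were too low to test. TLR4 and LY96, the core of the surface LPS receptor, had 0 counts in all 7 libraries of the 3 groups at 10 h. CD14 had 6.13, 6.38 and 8.11 CPM with OMVs, against 6.08 and 7.33 CPM with free LPS and 5.94 and 6.40 CPM with PBS, overlapping in all groups (log2 fold change -0.006 ± 0.23). TLR2, a receptor for bacterial lipoproteins, had 10.2, 9.39 and 9.01 CPM with OMVs, against 12.8 and 9.03 CPM with free LPS and 11.5 and 8.76 CPM with PBS (log2 fold change -0.058 ± 0.20). TLR7, a receptor for single-stranded RNA, had 1.73, 6.74 and 8.47 CPM with OMVs, against 0.445 and 2.39 CPM with free LPS and 0.424 and 1.81 CPM with PBS, and missed the threshold (log2 fold change 1.54 ± 0.47, adjusted p = 0.0549). These 3 receptors were chosen after their values were seen.

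Of 19 genes of epithelial defence and antiproteases, 6 were higher and 0 were lower, and their median log2 fold change was 0.82. PI3 (ENSG00000124102.5, chr20:45174902-45176544), which encodes elafin, an inhibitor of neutrophil elastase at mucosal surfaces, had 66.4, 101.2 and 64.5 CPM with OMVs, against 14.98 and 21.6 CPM with free LPS and 17.0 and 24.5 CPM with PBS. The lowest OMV library was more than double the highest of the others (log2 fold change 2.12 ± 0.15, adjusted p = 5.40e-17). SOD2 (ENSG00000291237.1, chr6:159669069-159762529), the mitochondrial superoxide dismutase and an NF-κB target, had 289, 260.2 and 223 CPM with OMVs, against 168 and 134 CPM with free LPS and 166 and 144 CPM with PBS. It lay apart in all libraries with a smaller fold (log2 fold change 0.82 ± 0.067, adjusted p = 3.63e-16). NOX1, the superoxide-producing oxidase of colon epithelium, had 30.2, 34.2 and 33.9 CPM with OMVs, against 16.3 and 16.9 CPM with free LPS. NOX1 differed by 0.95 ± 0.18 on the log2 scale (adjusted p = 3.54e-04). NOX1 lay apart as well, and the remaining members were apart by small gaps or at low levels. MUC13, a cell-surface mucin, had 22.2, 41.2 and 33.4 CPM with OMVs, against 15.9 and 20.3 CPM with free LPS. MUC13 differed by 0.80 ± 0.23 on the log2 scale (adjusted p = 0.0403). The calcium-binding S100A3 had 2.83, 2.65 and 2.34 CPM with OMVs, against 0.297 and 0.511 CPM with free LPS. S100A3 differed by 2.73 ± 0.61 on the log2 scale (adjusted p = 0.00316). CEACAM7, an adhesion molecule of the colon surface, had 1.42, 6.74 and 5.41 CPM with OMVs, against 0 and 1.19 CPM with free LPS, with OMV 2 just above LPS 3. CEACAM7 differed by 2.46 ± 0.59 on the log2 scale (adjusted p = 0.00726). The fitted log2 fold change of CEACAM7 was 4.61 without LPS 3, which leaves the LPS group at 0 and is no bound. Calls were lost for NOX1 (without LPS 3, adjusted p 0.0905), MUC13 (without any 1 of the 5 libraries, adjusted p up to 0.467), S100A3 (without LPS 2 or LPS 3, adjusted p up to 0.0911) and CEACAM7 (without OMV 3 or LPS 3, adjusted p up to 0.429). LCN2, an iron-scavenging antimicrobial protein too low to test, had 15 counts with OMVs and 0 with free LPS and with PBS. It was chosen after its counts were seen. Of the other members too low to test, SAA1 had 12 counts with OMVs and 1 with free LPS, and S100A9 had 7 and 2. OLFM4 had 6 and 1, DUOXA2 had 4 and 3, DEFB4A had 2 and 0, REG1A had 2 and 2, SAA2 had 1 and 0, and S100A8 had 0 and 0.

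Complement C3 stood apart from the other liver-type plasma proteins that Caco-2 cells make. C3 (ENSG00000125730.18, chr19:6677704-6730562), the central complement protein, had 225, 249.3 and 254 CPM with OMVs, against 59.0 and 87.4 CPM with free LPS and 63.2 and 81.5 CPM with PBS. The OMV libraries were more than 2-fold above every other library (log2 fold change 1.65 ± 0.18, adjusted p = 4.48e-08). The other 3 members past the test, of 17 tested, were lower with OMVs. C5, which forms the terminal complement complex, had 10.1, 6.26 and 5.77 CPM with OMVs, against 17.8 and 9.89 CPM with free LPS, with OMV 2 above LPS 3. C5 differed by -0.78 ± 0.17 on the log2 scale (adjusted p = 0.00281). The serine protease inhibitor SERPINA1 had 770.1, 518 and 466.2 CPM with OMVs, against 1100.0 and 622 CPM with free LPS, with the same overlap. SERPINA1 differed by -0.38 ± 0.09 on the log2 scale (adjusted p = 0.00973). Fibrinogen beta, FGB, had a log2 fold change of -0.60 ± 0.14, adjusted p = 0.0126. The median over the 17 was -0.33. The call of C3 held without any 1 library, while the calls of C5 (without LPS 2, adjusted p 0.233), SERPINA1 (without OMV 2, LPS 2 or LPS 3, adjusted p up to 0.14) and FGB (without OMV 2, LPS 2 or LPS 3, adjusted p up to 0.129) were lost.

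**Figure D1:**
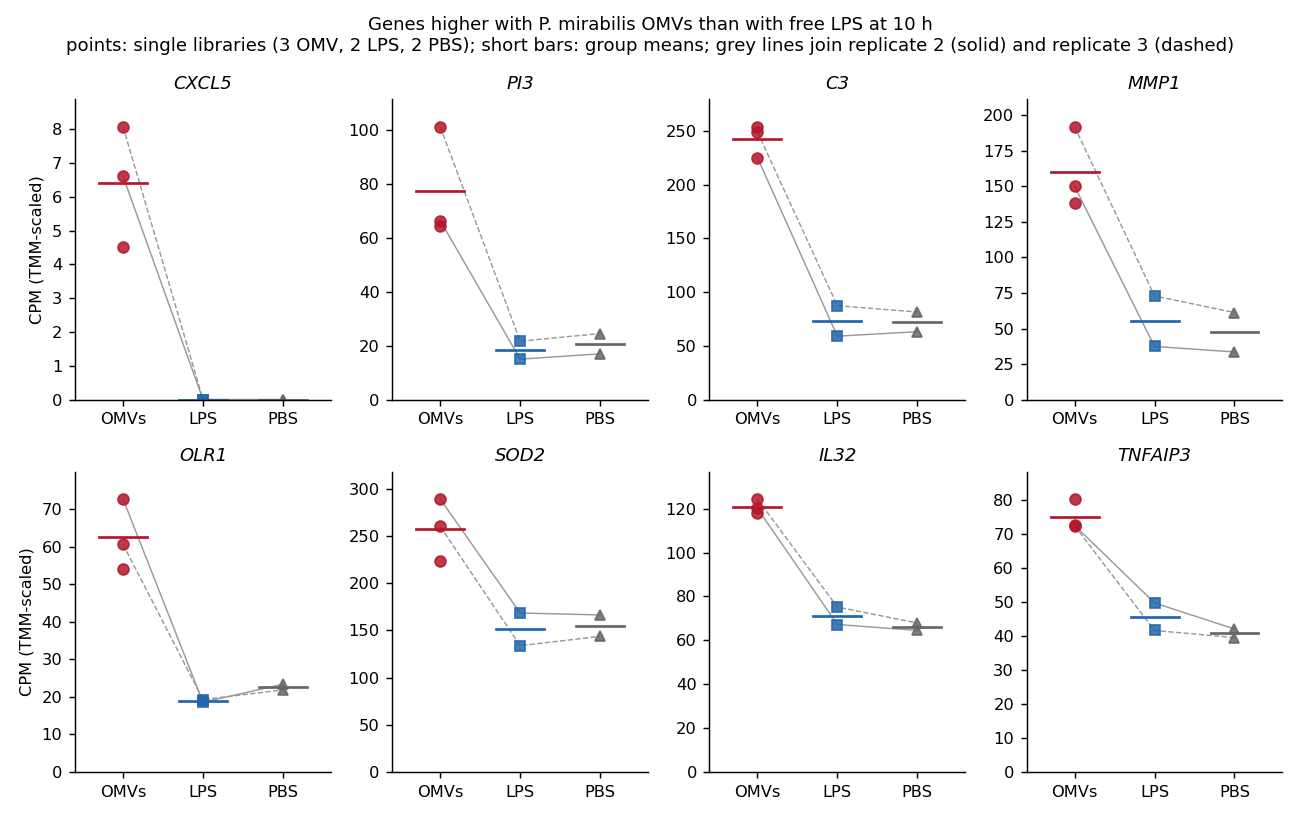
Levels in CPM (vertical axes, from 0) of CXCL5, PI3, C3, MMP1, OLR1, SOD2, IL32 and TNFAIP3, 1 panel a gene, with 1 point a library and a bar for the mean of OMVs (n = 3), free LPS (n = 2) and PBS (n = 2) at 10 h, and grey lines joining replicates 2 (solid) and 3 (dashed) across groups. All 8 genes lie higher in every OMV library than in any LPS or PBS library, while LPS and PBS libraries lie side by side.

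Among genes of the matrix and its remodelling, 5 of 21 were higher and 0 were lower, with a median of 0.018 over the 21. MMP1, interstitial collagenase, had 150.0, 192 and 139 CPM with OMVs, against 37.4 and 72.9 CPM with free LPS and 33.5 and 61.2 CPM with PBS. All OMV libraries were above the rest, and the replicates differed within LPS and PBS as well (log2 fold change 1.56 ± 0.23, adjusted p = 2.64e-05). The hyaluronan receptor CD44 had 18.6, 56.6 and 53.2 CPM with OMVs, against 5.34 and 24.7 CPM with free LPS and 8.49 and 26.8 CPM with PBS. Replicate 2 was low in every group, so the groups overlapped, and the difference was seen within replicate numbers (log2 fold change 1.28 ± 0.18, adjusted p = 1.53e-06). The proteoglycan SDC4 had 237, 332 and 339 CPM with OMVs, against 195 and 236 CPM with free LPS, with OMV 2 level with LPS 3. SDC4 differed by 0.40 ± 0.077 on the log2 scale (adjusted p = 3.62e-04). The sheddase ADAM9 had a log2 fold change of 0.36 ± 0.074, adjusted p = 0.00103. Of these, the calls of SDC4 (without LPS 2, adjusted p 0.0546) and ADAM9 (without LPS 2, adjusted p 0.0849) were lost.

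Other genes with small p-values have varied roles. OLR1, the scavenger receptor LOX-1 for oxidised lipoprotein, had 72.6, 60.6 and 54.1 CPM with OMVs, against 18.5 and 19.3 CPM with free LPS and 23.3 and 21.8 CPM with PBS, more than 2-fold higher in every OMV library (log2 fold change 1.78 ± 0.22, adjusted p = 1.52e-06). SAT1, the rate-limiting enzyme of polyamine breakdown, had 53.9, 70.2 and 69.0 CPM with OMVs, against 26.7 and 28.6 CPM with free LPS and 25.9 and 29.2 CPM with PBS, with LPS and PBS libraries alike (log2 fold change 1.16 ± 0.11, adjusted p = 9.77e-13). PERP, a desmosomal protein and p53 target, had 388, 407 and 389 CPM with OMVs, against 238 and 237 CPM with free LPS and 239 and 230.2 CPM with PBS, tight within each group (log2 fold change 0.71 ± 0.069, adjusted p = 9.77e-13). ABAT, which degrades GABA, had 84.6, 73.5 and 84.0 CPM with OMVs, against 41.5 and 39.4 CPM with free LPS and 45.4 and 45.2 CPM with PBS, with no overlap (log2 fold change 0.96 ± 0.11, adjusted p = 6.95e-09). SLC12A2, the basolateral cotransporter NKCC1, had 251, 537 and 523 CPM with OMVs, against 123 and 326 CPM with free LPS and 150.2 and 346 CPM with PBS. Replicate 2 was low in each group, so the groups overlapped (log2 fold change 0.80 ± 0.089, adjusted p = 3.22e-09). EHF, an epithelial ETS transcription factor, had 4.56, 6.02 and 3.43 CPM with OMVs, against 1.04 and 1.53 CPM with free LPS and 1.27 and 1.39 CPM with PBS, low but apart (log2 fold change 1.88 ± 0.40, adjusted p = 0.00183), and the call of EHF (without LPS 2, adjusted p 0.0892) was lost. OR2I1P had 62.7, 62.4 and 60.2 CPM with OMVs, against 24.5 and 20.8 CPM with free LPS and 17.8 and 17.7 CPM with PBS (log2 fold change 1.38 ± 0.13, adjusted p = 7.11e-13), but 15.4% of its exon bases overlap UBD, and the counting names no strand setting, so reads of the pair cannot be told apart. HLA-E, a non-classical MHC molecule, was the 1 gene of 22 in the MHC and interferon list past the test (log2 fold change 0.47 ± 0.09, adjusted p = 3.25e-04). OMV 4 lay below LPS 2.

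Among the lowered genes with the smallest p-values, NYNRIN (ENSG00000205978.6, chr14:24399003-24419283), a gene of retroviral origin with a ribonuclease-like domain, had 23.3, 17.8 and 20.2 CPM with OMVs, against 52.7 and 40.7 CPM with free LPS and 51.8 and 35.5 CPM with PBS. Here LPS and PBS libraries overlapped and all OMV libraries were lower (log2 fold change -1.15 ± 0.12, adjusted p = 6.21e-12). CAPN5, a calcium-dependent protease, had 20.0, 16.9 and 18.6 CPM with OMVs, against 41.7 and 35.8 CPM with free LPS and 27.2 and 33.4 CPM with PBS, with the OMV libraries lowest. CAPN5 differed by -1.04 ± 0.13 on the log2 scale (adjusted p = 1.71e-08). GJB1, the gap junction protein connexin 32, had 51.1, 32.2 and 38.2 CPM with OMVs, against 78.3 and 69.4 CPM with free LPS and 86.2 and 58.3 CPM with PBS, also without overlap. GJB1 differed by -0.81 ± 0.11 on the log2 scale (adjusted p = 8.02e-08). HPN, the transmembrane protease hepsin, had 19.5, 22.3 and 21.3 CPM with OMVs, against 37.8 and 38.5 CPM with free LPS and 21.6 and 31.4 CPM with PBS. OMV libraries were below both LPS libraries and reached the level of PBS 2 (log2 fold change -0.84 ± 0.12, adjusted p = 1.52e-06). HAVCR1, the injury marker KIM-1 of kidney epithelium, had 205, 196 and 209 CPM with OMVs, against 308 and 304 CPM with free LPS and 250.4 and 244 CPM with PBS, an even step between all 3 groups (log2 fold change -0.57 ± 0.081, adjusted p = 1.31e-06). KLC4, a kinesin light chain, had 36.8, 30.3 and 34.8 CPM with OMVs, against 65.6 and 51.6 CPM with free LPS. KLC4 differed by -0.76 ± 0.10 on the log2 scale (adjusted p = 1.11e-07). The kinase CDK18 had 47.6, 28.5 and 32.8 CPM with OMVs, against 75.2 and 56.9 CPM with free LPS, and both genes lay apart. CDK18 differed by -0.77 ± 0.10 on the log2 scale (adjusted p = 1.17e-08). The small GTPase RAB37 had 11.5, 7.47 and 6.67 CPM with OMVs, against 23.7 and 14.7 CPM with free LPS. RAB37 differed by -1.06 ± 0.16 on the log2 scale (adjusted p = 1.52e-06). The D-lactate dehydrogenase LDHD had 9.12, 4.82 and 6.13 CPM with OMVs, against 18.7 and 11.4 CPM with free LPS (log2 fold change -1.08 ± 0.19, adjusted p = 6.00e-05), with all OMV libraries below all LPS libraries, as for RAB37.

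Genes of fatty acid oxidation and related mitochondrial and peroxisomal steps were lower in 6 of 20 members, LDHD included, and higher in 0, and 19 of 20 log2 fold changes were below 0 with a median of -0.20. ACOX2, a peroxisomal oxidase of branched chains, had 4.72, 3.97 and 5.77 CPM with OMVs, against 10.2 and 6.14 CPM with free LPS. ACOX2 differed by -0.83 ± 0.22 on the log2 scale (adjusted p = 0.02). HADH, which carries out the third step of the spiral, had 42.3, 41.2 and 41.5 CPM with OMVs, against 59.5 and 48.4 CPM with free LPS. HADH differed by -0.35 ± 0.10 on the log2 scale (adjusted p = 0.0312). EHHADH, the peroxisomal bifunctional enzyme, had a log2 fold change of -0.32 ± 0.095, adjusted p = 0.0415. Outside the list, ALDH6A1, which works in valine breakdown, had 67.5, 50.9 and 51.0 CPM with OMVs, against 106 and 74.7 CPM with free LPS. All OMV libraries were below both LPS libraries (log2 fold change -0.61 ± 0.088, adjusted p = 9.64e-07). SARDH, which oxidises sarcosine, had 0.629, 0.482 and 0.361 CPM with OMVs, against 4.45 and 1.87 CPM with free LPS, a large fold at low levels. SARDH differed by -2.29 ± 0.58 on the log2 scale (adjusted p = 0.0157). LDHD kept its call without any 1 library, and those of ACOX2 (without OMV 2, OMV 3 or LPS 2, adjusted p up to 0.38), HADH (without OMV 2, OMV 4, LPS 2 or LPS 3, adjusted p up to 0.267), EHHADH (without OMV 2, OMV 3, LPS 2 or LPS 3, adjusted p up to 0.245) and SARDH (without OMV 2, LPS 2 or LPS 3, adjusted p up to 0.339) were lost, with SARDH at -1.57 on the log2 scale without OMV 2.

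**Figure D2:**
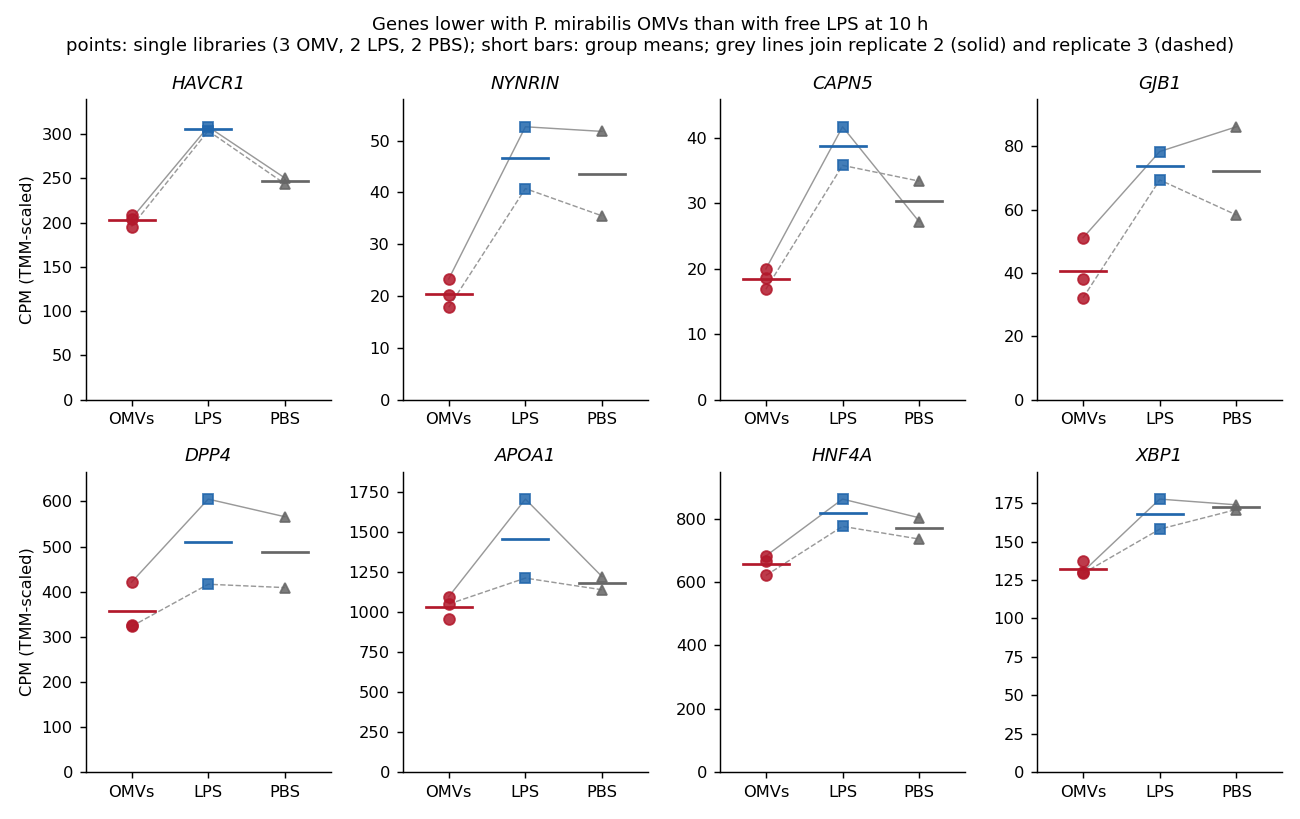
Levels in CPM (vertical axes, from 0) of HAVCR1, NYNRIN, CAPN5, GJB1, DPP4, APOA1, HNF4A and XBP1, 1 panel a gene, with 1 point a library and a bar for the mean of OMVs (n = 3), free LPS (n = 2) and PBS (n = 2) at 10 h, and grey lines joining replicates 2 (solid) and 3 (dashed) across groups. HAVCR1 is even with OMVs, at 205, 196 and 209 CPM, and DPP4 is the 1 gene of the 8 in which an OMV library reaches above an LPS library.

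Brush border enzymes and structural proteins had 7 lower and 0 higher members of 24 tested, and 20 of 24 log2 fold changes were below 0 with a median of -0.43. DPP4, the brush border dipeptidyl peptidase, had 421, 323 and 326 CPM with OMVs, against 605 and 416 CPM with free LPS and 566 and 409 CPM with PBS. OMV 2 reached above LPS 3, and within each replicate number OMVs were lower (log2 fold change -0.43 ± 0.066, adjusted p = 3.95e-06). MYO1A, the brush border myosin, had 39.5, 24.4 and 24.7 CPM with OMVs, against 55.3 and 37.5 CPM with free LPS, with OMV 2 above LPS 3. MYO1A differed by -0.54 ± 0.11 on the log2 scale (adjusted p = 0.00131). ESPN, an actin bundler of microvilli, had 17.3, 12.3 and 12.4 CPM with OMVs, against 28.3 and 22.3 CPM with free LPS. ESPN differed by -0.76 ± 0.15 on the log2 scale (adjusted p = 4.30e-04). CDHR5, which links microvillus tips, had a log2 fold change of -0.43 ± 0.083, adjusted p = 4.55e-04. LCT, lactase, had 12.3, 6.50 and 5.23 CPM with OMVs, against 27.0 and 10.2 CPM with free LPS, with overlap between the groups. LCT differed by -0.96 ± 0.20 on the log2 scale (adjusted p = 0.00197). ANPEP, aminopeptidase N, had 4.40, 3.73 and 3.61 CPM with OMVs, against 7.27 and 8.52 CPM with free LPS, and 2.12 and 6.12 CPM with PBS, a range that covers the OMV libraries. ANPEP differed by -0.91 ± 0.24 on the log2 scale (adjusted p = 0.0192). MEP1A, a meprin subunit, had a log2 fold change of -0.63 ± 0.16, adjusted p = 0.0157. Of the members too low to test, SLC5A1 went the other way, with 4, 6 and 5 counts with OMVs and 0 and 1 with free LPS. It had 0 and 6 counts with PBS. FABP2 had 3 counts with OMVs and 2 with free LPS, MEP1B had 1 and 1, and AQP8 had 0 and 0. DPP4, MYO1A and ESPN kept their calls without any 1 library, and those of CDHR5 (without LPS 3, adjusted p 0.109), LCT (without OMV 2 or LPS 2, adjusted p up to 0.132), ANPEP (without OMV 2, OMV 3, LPS 2 or LPS 3, adjusted p up to 0.279) and MEP1A (without OMV 2, LPS 2 or LPS 3, adjusted p up to 0.265) were lost.

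Apolipoproteins and genes of fat absorption were lower in 4 of 16 members and higher in 0, and all 16 log2 fold changes were below 0 with a median of -0.30. APOA1, the main protein of HDL, had 1097, 1050.4 and 957 CPM with OMVs, against 1708 and 1213 CPM with free LPS and 1222 and 1140.1 CPM with PBS, with OMV libraries below both LPS libraries and close to PBS. APOA1 differed by -0.43 ± 0.11 on the log2 scale (adjusted p = 0.0181). DGAT1 and DGAT2, which make triglycerides, had log2 fold changes of -0.34 ± 0.10, adjusted p = 0.0315 and of -0.35 ± 0.088, adjusted p = 0.0134. NPC1L1, the cholesterol importer of the apical membrane, had one of -0.36 ± 0.11, adjusted p = 0.0403. None of the 4 kept its call throughout, and the calls lost were those of APOA1 (without OMV 2, LPS 2 or LPS 3, adjusted p up to 0.212), DGAT1 (without OMV 2, OMV 4, LPS 2 or LPS 3, adjusted p up to 0.319), DGAT2 (without OMV 2, LPS 2 or LPS 3, adjusted p up to 0.165) and NPC1L1 (without any 1 of the 5 libraries, adjusted p up to 0.273).

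Among 21 transcription factors of the intestinal epithelium, 1 was higher, EHF, and 3 were lower. HNF4A, the master regulator of enterocyte and liver genes, had 682, 621 and 668 CPM with OMVs, against 862 and 776 CPM with free LPS and 803 and 736 CPM with PBS. The step was small and even, with all OMV libraries below all others (log2 fold change -0.31 ± 0.073, adjusted p = 0.00611). KLF5, a factor of proliferating crypt cells, had 153, 182 and 192 CPM with OMVs, against 232 and 237 CPM with free LPS. KLF5 differed by -0.43 ± 0.10 on the log2 scale (adjusted p = 0.0105). GATA5, a GATA family factor, had 0, 0.963 and 0.721 CPM with OMVs, against 1.34 and 2.73 CPM with free LPS, apart at low levels. GATA5 differed by -1.93 ± 0.53 on the log2 scale (adjusted p = 0.0246). GATA5 stood at -2.54 on the log2 scale without OMV 3. The 3 calls were lost for HNF4A (without OMV 3 or LPS 2, adjusted p up to 0.171), KLF5 (without OMV 2, LPS 2 or LPS 3, adjusted p up to 0.137) and GATA5 (without OMV 2, OMV 4, LPS 2 or LPS 3, adjusted p up to 0.222). Of 23 junction genes, 2 were higher and 2 were lower. TJP3, the tight junction scaffold ZO-3, had 30.7, 29.1 and 31.0 CPM with OMVs, against 45.8 and 42.4 CPM with free LPS and 37.8 and 38.9 CPM with PBS, with the OMV libraries lowest. TJP3 differed by -0.54 ± 0.10 on the log2 scale (adjusted p = 3.69e-04). CLDN3, a sealing claudin, had 10.2, 11.4 and 13.5 CPM with OMVs, against 20.5 and 19.6 CPM with free LPS and 18.7 and 19.5 CPM with PBS, with the OMV libraries below all others. CLDN3 differed by -0.80 ± 0.17 on the log2 scale (adjusted p = 0.00131). CTNNB1, beta-catenin, had 167, 207 and 205 CPM with OMVs, against 120.0 and 170.3 CPM with free LPS (log2 fold change 0.34 ± 0.073, adjusted p = 0.00188), with OMV 2 below LPS 3, and its call was lost without LPS 2 (adjusted p 0.167). The call of TJP3 held without any 1 library and that of CLDN3 (without LPS 2, adjusted p 0.0503) was lost.

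**Figure D3:**
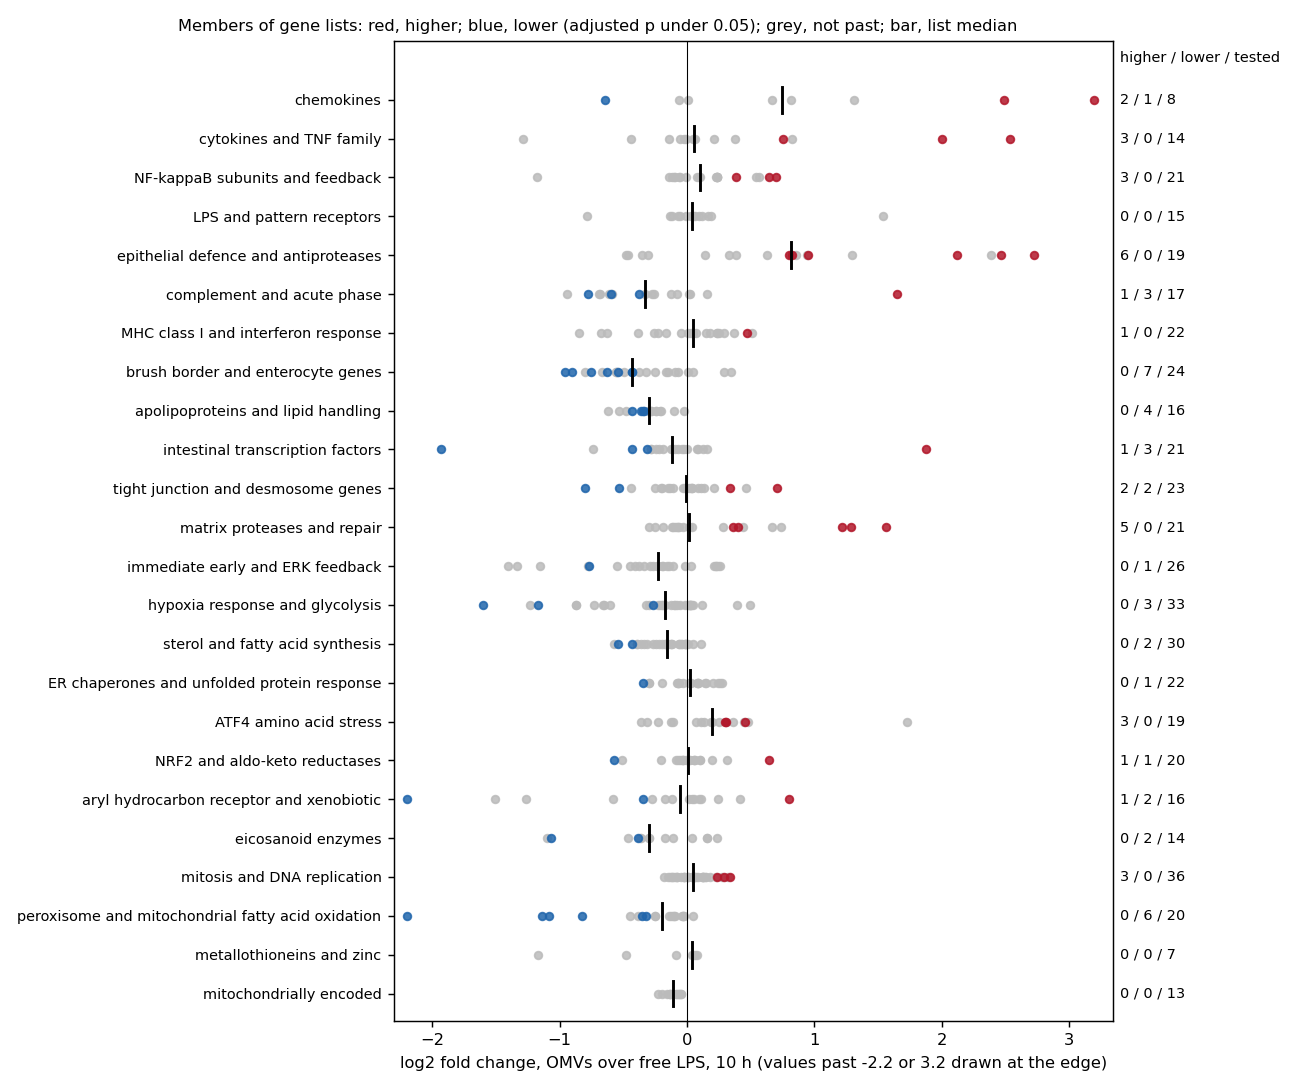
Log2 fold change of OMVs over free LPS at 10 h for the tested members of each gene list, 1 row a list, with 1 point a gene (red higher, blue lower, grey not past the test) and a bar for the median. Counts of higher, lower and tested genes stand at the right, and values past the ends of the axis are drawn at its edge. The medians of epithelial defence (0.82), the brush border (-0.43) and apolipoproteins (-0.30) lie away from the median of all genes, 0.0042.

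In the list of hypoxia and glycolysis 3 of 33 genes were lower with OMVs and 0 were higher, and in NDRG1 and BNIP3L the LPS libraries stood out. NDRG1, a stress and differentiation gene of hypoxic cells, had 70.9, 37.1 and 36.8 CPM with OMVs, against 214 and 101.4 CPM with free LPS and 74.3 and 67.7 CPM with PBS. LPS 2 was highest and both LPS libraries were above all others (log2 fold change -1.60 ± 0.37, adjusted p = 0.00913). OMVs over PBS gave -0.45 ± 0.42, adjusted p = 0.763. BNIP3L, a mitophagy receptor, had 21.2, 15.4 and 14.4 CPM with OMVs, against 43.2 and 35.8 CPM with free LPS and 20.8 and 22.1 CPM with PBS, with OMV 2 within the PBS range (log2 fold change -1.17 ± 0.23, adjusted p = 0.00215). PFKL, the liver-type phosphofructokinase, had a log2 fold change of -0.27 ± 0.079, adjusted p = 0.0403. The calls of NDRG1 (without OMV 3 or LPS 2, adjusted p up to 0.35), BNIP3L (without LPS 2, adjusted p 0.0848) and PFKL (without OMV 2, OMV 3, OMV 4 or LPS 2, adjusted p up to 0.569) were lost, with NDRG1 at -1.002 on the log2 scale without LPS 2. CLIC3, a chloride channel-like protein in no list, had 1.89, 1.57 and 1.26 CPM with OMVs, against 4.75 and 6.14 CPM with free LPS and 1.27 and 2.36 CPM with PBS (log2 fold change -1.76 ± 0.33, adjusted p = 2.80e-04), also highest with free LPS.

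The remaining lists had few members past the test. XBP1, the transcription factor of the unfolded protein response, had 130.5, 129 and 137 CPM with OMVs, against 178 and 158 CPM with free LPS and was the 1 lower gene of 22 (log2 fold change -0.35 ± 0.077, adjusted p = 0.00287). In the ATF4 list 3 of 19 were higher, with MTHFD2, of mitochondrial folate metabolism, at 0.30 ± 0.091, adjusted p = 0.0432, the amino acid transporter SLC7A5 at 0.46 ± 0.13, adjusted p = 0.0414 and its heavy chain SLC3A2 at 0.30 ± 0.082, adjusted p = 0.0225. Of 36 mitosis genes, 3 were higher, namely the checkpoint kinase BUB1 (log2 fold change 0.33 ± 0.078) and the mitotic kinases PLK1 (0.29 ± 0.071) and AURKA (0.24 ± 0.066). Of 30 sterol synthesis genes 2 were lower, TM7SF2 (-0.54 ± 0.10) and EBP (-0.43 ± 0.12), and 27 had log2 fold changes below 0 with a median of -0.16. SPRY4, a feedback inhibitor of growth factor signalling, had 15.1, 27.6 and 32.8 CPM with OMVs, against 36.9 and 42.3 CPM with free LPS and was the 1 lower gene of 26 immediate early and feedback genes (log2 fold change -0.77 ± 0.19, adjusted p = 0.0157), with no overlap. CYP1A1, the classic target of the aryl hydrocarbon receptor, had 113, 102.3 and 91.0 CPM with OMVs, against 62.9 and 68.9 CPM with free LPS and 69.2 and 82.8 CPM with PBS. OMV libraries were highest (log2 fold change 0.80 ± 0.20, adjusted p = 0.0184), while AHR itself was lower (log2 fold change -0.34 ± 0.10, adjusted p = 0.0288), and the log2 fold change of CYP1A1 was -0.25 and -0.14, without and with the block, once the libraries left aside were put back. CYP4F3, which inactivates leukotriene B4, had 0.157, 0.241 and 0.721 CPM with OMVs, against 0.593 and 3.41 CPM with free LPS, on 7 counts with OMVs and 24 with free LPS, and OMV 4 was above LPS 2 (log2 fold change -2.53 ± 0.58, adjusted p = 0.00459). Its log2 fold change was -0.89 without LPS 3 and -3.33 without LPS 2. In the NRF2 list of 20 tested genes, GPX2, a glutathione peroxidase of the gut epithelium, was the 1 higher gene, with 71.4, 65.99 and 56.6 CPM with OMVs, against 42.1 and 42.4 CPM with free LPS and 36.5 and 42.4 CPM with PBS. All OMV libraries were above all others (log2 fold change 0.65 ± 0.16, adjusted p = 0.0143). The 1 lower gene was ABCC3, an export pump of conjugates, with 78.9, 52.3 and 54.1 CPM with OMVs, against 124 and 76.7 CPM with free LPS and 90.0 and 69.0 CPM with PBS. OMV 2 was above LPS 3, and within each replicate number OMVs were lower (log2 fold change -0.58 ± 0.10, adjusted p = 4.43e-05). Of 14 eicosanoid enzymes 2 were lower, the epoxide hydrolase EPHX2 (-0.38 ± 0.11) and the prostacyclin synthase PTGIS (-1.07 ± 0.27). Of 7 tested genes of zinc handling, of which 1 is a metallothionein (MT1F), and 13 mitochondrially encoded genes, 0 passed in either direction. The call of ABCC3 held without any 1 library. Calls were lost for GPX2 (without OMV 2, LPS 2 or LPS 3, adjusted p up to 0.174), CYP4F3 (without LPS 3, adjusted p 0.789), EPHX2 (without OMV 2, OMV 3, OMV 4 or LPS 3, adjusted p up to 0.482) and PTGIS (without LPS 2 or LPS 3, adjusted p up to 0.162). They were also lost for XBP1 (without OMV 2 or LPS 3, adjusted p up to 0.104), MTHFD2 (without OMV 2, OMV 4, LPS 2 or LPS 3, adjusted p up to 0.423), SLC7A5 (without any 1 of the 5 libraries, adjusted p up to 0.365), SLC3A2 (without OMV 2, OMV 3, LPS 2 or LPS 3, adjusted p up to 0.254), BUB1 (without LPS 2 or LPS 3, adjusted p up to 0.115), PLK1 (without OMV 2, LPS 2 or LPS 3, adjusted p up to 0.13) and AURKA (without OMV 2, OMV 3, LPS 2 or LPS 3, adjusted p up to 0.216), and likewise for TM7SF2 (without LPS 3, adjusted p 0.09), EBP (without OMV 2, OMV 3, LPS 2 or LPS 3, adjusted p up to 0.233), SPRY4 (without OMV 2, LPS 2 or LPS 3, adjusted p up to 0.151), CYP1A1 (without OMV 2, OMV 4, LPS 2 or LPS 3, adjusted p up to 0.244) and AHR (without OMV 2, LPS 2 or LPS 3, adjusted p up to 0.388).

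Cells given PBS place both arms. OMVs against PBS gave 199 genes past the test (1.06%), 79 higher (0.421%) and 120 lower (0.639%), fewer than against LPS with the same OMV libraries. The count was 37 without PBS 3, 83 without OMV 2 and 121 without OMV 3. The 2 comparisons share their OMV libraries, so their values are given side by side without a test of their likeness. Over the 244 genes higher with OMVs than with free LPS, the median log2 fold change was 0.28 for OMVs over PBS and -0.094 for LPS over PBS. Over the 353 lower genes these medians were -0.38 and 0.13. PI3 had 1.92 ± 0.16, adjusted p = 2.41e-14 for OMVs over PBS and -0.20 ± 0.19 for LPS over PBS, C3 had 1.68 ± 0.19, adjusted p = 2.34e-07 and 0.025 ± 0.21, and SOD2 had 0.78 ± 0.07, adjusted p = 2.41e-14 and -0.043 ± 0.076. For these 3 genes the LPS and PBS libraries overlapped. NYNRIN had -1.02 ± 0.13, adjusted p = 1.80e-08 for OMVs over PBS and 0.12 ± 0.12 for LPS over PBS. For NDRG1 and BNIP3L, LPS lay further from PBS, at 1.15 ± 0.41 and 0.86 ± 0.26, than OMVs did.

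**Figure D4:**
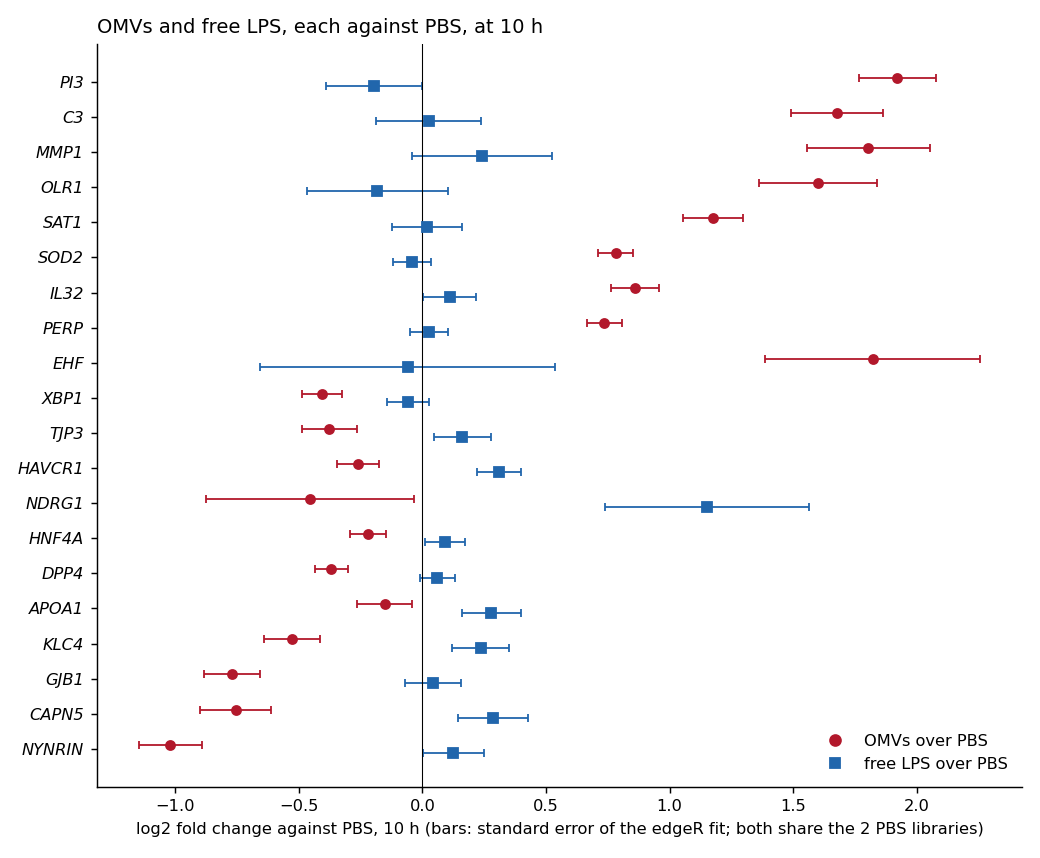
Log2 fold change against PBS at 10 h (horizontal axis) of OMVs (red circles) and of free LPS (blue squares) for 20 genes named in the text, with bars of 1 standard error. Both share the PBS libraries. The raised genes lie right of 0 with OMVs and near 0 with free LPS, while NDRG1 lies furthest from 0 with free LPS, at 1.15.

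At 24 h the same comparison, with replicates 2 and 3 of each group and no library shared with 10 h, gave 29 genes past the test (0.154%), 28 higher (0.149%) and 1 lower (0.00533%) with OMVs. The count was 16 without OMV 2, 15 without OMV 3, 8 without LPS 2 and 19 without LPS 3 of that time. Of these, 13 were past the test at 10 h, 12 of the 244 higher genes and 1 of the 353 lower genes. They are PI3, C3, OR2I1P, EHF, IL32, PERP, TNFAIP3, IKBKE, SDC4, MTHFD2, NIN and GARS1, with DPP4 lower at both times. At 24 h PI3 had 42.7 and 67.9 CPM with OMVs, against 11.6 and 17.5 CPM with free LPS (1.94 ± 0.17, adjusted p = 8.54e-13), and C3 had 216 and 257 CPM with OMVs, against 39.6 and 76.0 CPM with free LPS (2.09 ± 0.19, adjusted p = 4.59e-09), each with both OMV libraries far above both LPS libraries. TNFAIP3 had 86.0 and 70.3 CPM with OMVs, against 30.3 and 35.1 CPM with free LPS at 24 h, with a log2 fold change of 1.27 ± 0.11, adjusted p = 6.23e-14. SOD2 had 184 and 148 CPM with OMVs, against 164 and 143 CPM with free LPS at 24 h, with overlap. NYNRIN had 78.1 and 62.2 CPM with OMVs, against 89.9 and 68.5 CPM with free LPS at 24 h, also with overlap. Tested as a difference of the effects at 10 and 24 h, 29 genes passed (0.154%; 5 with the higher value at 10 h, 0.0266%, and 24 with the lower one, 0.128%), among them SOD2 (0.72 ± 0.10, adjusted p = 7.55e-06), SAT1 (1.03 ± 0.19, adjusted p = 0.00135) and NYNRIN (-0.98 ± 0.16, adjusted p = 2.99e-04). Over the 244 higher genes the median log2 fold change at 24 h was 0.061 and over the 353 lower genes it was -0.037.

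Many of the genes apart at 10 h also differed between untreated PBS cells at 24 h and at 10 h. Both PBS libraries used at 24 h were on 1 flow cell and both used at 10 h on the other. Time in culture and flow cell therefore cannot be told apart within these PBS libraries. In PBS, 24 h against 10 h gave 1342 genes past the test (7.15%), 548 higher at 24 h (2.92% of all tested) and 794 lower (4.23%), and none of these PBS libraries is an OMV or LPS library. Of the 244 genes higher with OMVs, 110 (45.1%, and 13.9% of the 794) were lower at 24 h in PBS and 1 was higher. Of the 353 genes lower with OMVs, 152 (43.1%, and 27.7% of the 548) were higher at 24 h in PBS and 1 was lower. These counts moved with the libraries used. The count in PBS was 118 without PBS 2 at 24 h, 469 without PBS 2 at 10 h, 876 without PBS 3 at 10 h and 177 without the block. In place of the 110 and 152 there were 20 and 33 without PBS 2 at 24 h, 60 and 75 without PBS 2 at 10 h, 69 and 100 without PBS 3 at 10 h, and 23 and 30 without the block. With the libraries of the lanes put back, 0 genes passed in PBS, with 453 at an unadjusted p under 0.05 with the block. With flow cell and lane as a factor in the fit of all groups, 1763 genes passed in PBS, with 115 and 162 in place of the 110 and 152. NYNRIN differed in PBS at 24 h from 10 h by 0.93 ± 0.12, adjusted p = 2.28e-08, HAVCR1 by 1.16 ± 0.09, adjusted p = 1.55e-15, MMP1 by -1.42 ± 0.34, adjusted p = 0.00655 and CYP1A1 by -2.69 ± 0.30, adjusted p = 2.53e-07. Each of these differed in the opposite direction with OMVs at 10 h. A scale of time was taken from classes of libraries over 1500 genes, a class being 1 labelled time and 1 replicate number. It is the best correlation of a library with any 24 h class less its best with any 10 h class. By this measure OMV libraries had -0.076, -0.042 and -0.034, LPS libraries -0.033 and -0.0055, and PBS libraries -0.034 and -0.017. OMV 2 and OMV 3 were thus lowest on this scale and OMV 4 lay level with LPS 2 and PBS 2. The part of such a shift in the gene differences was not tested.

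**Figure D5:**
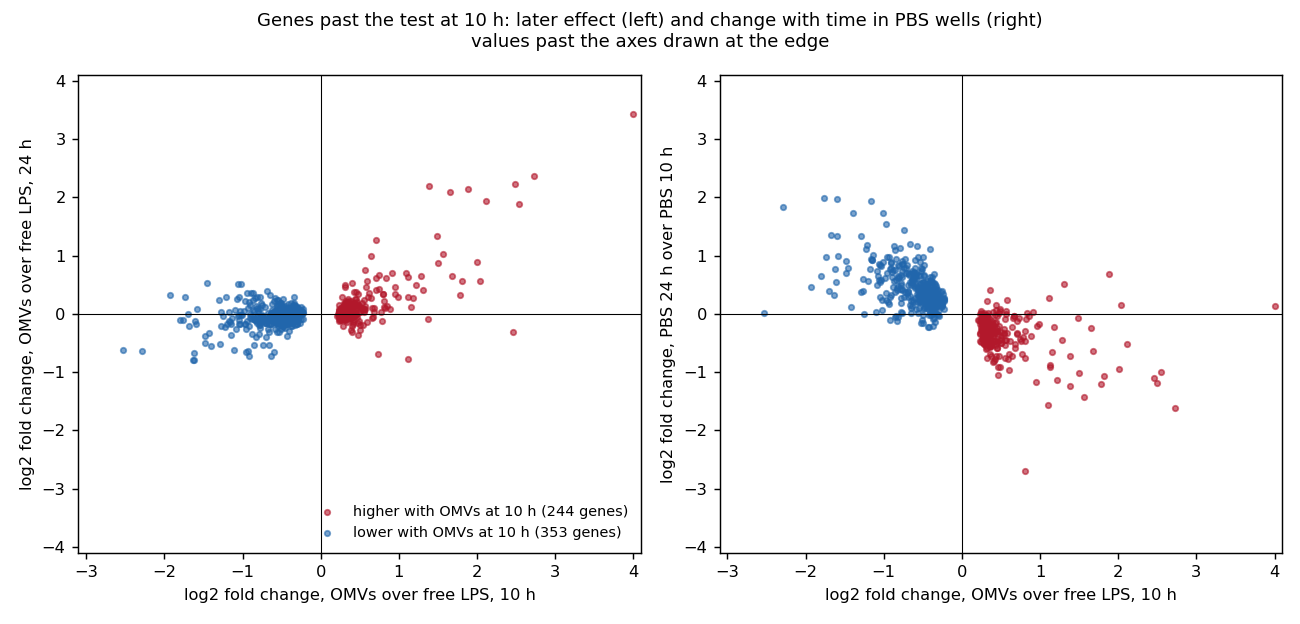
Log2 fold change of OMVs over free LPS at 10 h (horizontal axes) for the 244 higher (red) and 353 lower (blue) genes, against the same comparison at 24 h (left, vertical axis) and against PBS at 24 h over PBS at 10 h (right, vertical axis), with 1 point a gene and values past the axes drawn at the edge. On the left most points lie near 0 at 24 h (medians 0.061 and -0.037), and on the right most higher genes lie below 0 (median -0.34) and most lower genes above it (median 0.38).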

How the data were processed

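Total RNA of Caco-2 cells was sequenced after depletion of ribosomal RNA, as paired-end reads. Alignment by the authors used STAR and the GRCh38 build, and featureCounts gave the count of each gene. No strand setting is named. The deposited values are raw counts per gene, in 1 table of 63241 genes by all libraries of the series, and library totals were summed from them. All columns were mapped to samples by title. All entries name a gene.

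Genes were kept by filterByExpr with the 28 groups as design, 18775 of 46395 with a count. The 66 libraries outside lanes 2 to 4 of 1 of 2 flow cells entered 1 fit in edgeR 4.0.16 (R 4.3.3), with TMM scaling, a dispersion trend, the quasi-likelihood F test with the robust option, and the replicate number as a block. A biological coefficient of variation of 0.063 was estimated. P-values were two-sided and Benjamini-Hochberg adjusted over all genes tested, with a threshold of 0.05. Fold changes are log2 values with their standard error, the absolute value over the root of F, written value ± SE, and CPM are counts per 1e6 of TMM-scaled size. Low levels are limited by depth: 3 counts over a group stood for 0.148 CPM with OMVs, 0.238 CPM with free LPS and 0.314 CPM with PBS. Intervals and floors cover counting error only. Alternatives used DESeq2 1.42.0, limma 3.58.1 (voom), RLE size factors, no filter, other blocks and libraries, and each library left out.

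The lanes and the block follow the fit used in an earlier account of these data. The deviations of replicates 2 and 3 from their group means correlated at 0.57 between OMVs and free LPS, 1 value because the 2 pairs mirror each other. The labels do not say what a number marks, and OMV 4 has no LPS partner.

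Genes were named by a rule: the 15 highest and 15 lowest log2 fold changes with at least 1 CPM, the 10 smallest p-values in each direction, and in each list the members past the test with up to 4 abundant ones that did not pass. The comparison, the lists and this rule were chosen with earlier results of these data known. Other genes are given as chosen after their values were seen. Promoter sequences are from RefSeq. A few genes are not reported here, and the counts include them.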

Additional observations from a re-analysis of the deposited data

Results flagged for a closer look

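The share of mitochondrially encoded counts in the library labelled OMV replicate 5 was 15.5%, far from the 9.44 to 10.2% of the other 3 OMV libraries at 10 h (gap over range 0.874, against a limit of 0.829 for 4 libraries). On the lanes left aside, the share at 10 h was also 16.0% in LPS 5, 14.9% in PBS 5, 13.9% in PBS 4 and 11.6% in LPS 4. Total counts and this share were screened in the OMV, LPS and PBS groups at 10 and 24 h. Chance alone sets apart about 1 in 20 groups. The library labelled OMV replicate 5 was left aside in the report, and its part in any result was not tested.

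The effect of OMVs over free LPS differed between 10 and 24 h for 11 of the 41 higher and 60 lower genes examined one by one (edgeR quasi-likelihood test of the difference, Benjamini-Hochberg adjusted over all genes). The difference, 10 h less 24 h on the log2 scale, was above 0 for SAT1 at 1.03 (adjusted p = 0.00135) and SOD2 at 0.72 (adjusted p = 7.55e-06). Among those below 0 were RAB37 at -1.03 (adjusted p = 0.0135), NYNRIN at -0.98 (adjusted p = 0.000299) and CAPN5 at -0.87 (adjusted p = 0.0135). Smaller differences were found for KLC4 at -0.72, GJB1 at -0.65, TJP3 at -0.63, HAVCR1 at -0.57 and XBP1 at -0.50, with adjusted p of 0.0105, 0.0452, 0.0347, 0.0137 and 0.0337 in that order. At 24 h itself the log2 fold change was 0.12 for SAT1 and 0.11 for SOD2.

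CXCL5, at 0 in the LPS and PBS libraries compared, had counts in libraries outside the comparison. There were 13 and 4 counts in replicates 3 and 4 of L. casei vesicles at 10 h. The library labelled transfected LPS at 24 h, replicate 4, from the lanes left aside, had 27 counts, with 85.003 CPM of PI3, 184.5 CPM of C3 and 153 CPM of MMP1, and by its expression stood nearest to cells at 10 h.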

How the results depend on the processing

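The count of OMVs against free LPS at 10 h was 597 and fell to 5 with all libraries of the series and no block, 6 with all of them and the block, 37 without the replicate block and 344 with replicates 2 and 3 only. It was 1503 with the replicate block within each time and 1344 with only the groups compared. With 1 library left out it was 193 to 470. For OMVs against PBS these settings gave, in place of 199, counts of 3, 6, 18 and 121, then 682 and 648, and 37 to 183 with 1 library left out (37 without PBS 3, 83 without OMV 2). Flow cell and lane as a factor gave 349 there. Free LPS against PBS gave 18 with only the groups compared and 0 in the other settings. At 24 h the 29 genes became 0, 0 and 5 in the first 3 settings, 63 and 61 in the within-time and compared-groups fits, and 8 to 19 with 1 library left out. For PBS at 24 h over 10 h, 1342 became 0, 0, 177 and 3045 (block within each time), and 118 to 1198 with 1 library left out. DESeq2 (677), limma-voom (698), RLE size factors (612), no filter and the fit without the robust option (606) stayed near 597, and 550 of the DESeq2 and 579 of the voom genes were among the 597. Of 213 genes named or listed, CYP1A1 reversed, at -0.2454 and -0.1394 in these 2 fits with all libraries. CXCL5 had no adjusted p in DESeq2. The cause of these shifts was not tested. The fold changes rest on 3 OMV and 2 LPS libraries, while the spread was estimated over all libraries in the fit. PBS 2 was the shallowest of the 7.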
